A study of Rattus norvegicus with 6 samples.

Results

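The measurements below concern the cyclin-dependent kinase (CDK) inhibitor genes Cdkn1a, Cdkn1b, Cdkn1c, Cdkn2a, Cdkn2b, Cdkn2c and Cdkn2d together with Mdm2 and Ccng1, which surround the transcription factor p53. The 9 genes were chosen by symbol and not by a cut on their measured level, though earlier results of these data were known. The combined gene table held 8 of them among its 20264 rows, and 7 had enough counts to be tested among 11426 genes. The expression of Cdkn2d was not analysed here.

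The libraries were RNA-seq of primary nucleus pulposus cells, the cells of the gel-like core of the intervertebral disc, taken from the tail discs of male wild-type Sprague-Dawley rats. The TBHP group (n = 3) was cultured with tert-butyl hydroperoxide, an organic peroxide used to impose oxidative stress. The TBHP+FGF21 group (n = 3) received the same peroxide together with fibroblast growth factor 21, a secreted metabolic hormone. Every library therefore came from peroxide-treated cells, and no library from cells without TBHP was analysed here. The levels below consequently compare cells with and without added FGF21, and they do not measure what TBHP itself did to these genes. The treatment labels of TBHP+FGF21 replicates 2 and 3 name FGF22 and FGF23, whereas the titles and the series description give 1 FGF21 group, and the titles were followed. The labels call the samples biological replicates without saying whether they came from separate animals, so the p-values measure the spread between these samples. The age of the rats and the dose used for the sequenced cultures were not given in the sources used here.

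Between 18277724 and 22426186 counts per library were assigned to genes, and 3 counts corresponded to 0.134 to 0.164 counts per 1000000 counts of the library (CPM). In each group 1 library lay nearer to the other group than to its own. The mean Spearman correlation across genes of TBHP+FGF21 replicate 2 was 0.996 with the TBHP libraries and 0.990 with its own group, and that of TBHP replicate 3 was 0.994 with the TBHP+FGF21 libraries and 0.993 with its own group, so the results are given with and without each of them. Among markers of nucleus pulposus, Acan (2506 to 4355 CPM), Pax1 (211 to 385 CPM) and Foxf1 (39.8 to 62.1 CPM) were present in every library, whereas Col2a1 had 9 to 14 counts and the notochordal genes Tbxt and Shh had 0. Of the 8 nucleus pulposus markers that could be tested 4 were above 0 (Acan 0.40, Pax1 0.54, Sox9 0.56 and Foxf1 0.27 as log2 fold change, TBHP+FGF21 against TBHP) and 4 below (Krt8 -0.43, Cd24 -0.55, Car3 -0.34 and Col2a1 -0.26). An unadjusted p under 0.05 in edgeR was found for 3 above 0 and 0 below, where the share over all genes was 4.63% higher and 4.29% lower. Nucleus pulposus markers were counted in 9 of 12 listed genes, with a summed level of 2771 to 3218 CPM in the TBHP group and 3141 to 4820 CPM in the TBHP+FGF21 group, most of it Acan (means of 2709 and 3565 CPM). The fibroblast and annulus list was counted in 7 of 8 genes, at 39749 to 44012 CPM in the TBHP group and 29473 to 41631 CPM in the TBHP+FGF21 group, of which Col1a1 made up 27868 to 42463 CPM. Its log2 fold changes lay on both sides of 0. Above were Pdgfra (0.39), Mkx (0.22), Col1a2 (0.08, at only 7 to 17 counts) and Thy1 (0.06), and below were Scx (-0.39), Col1a1 (-0.19) and Dcn (-0.08). Pdgfra and Scx had an unadjusted p under 0.05 in edgeR. The macrophage and leukocyte list was counted in 4 of 6 genes and summed to 32.2 to 38.2 CPM against 26.6 to 32.9 CPM, mostly Cd14, and its defining genes Ptprc and Adgre1 were at 0. The endothelial genes Cdh5 and Kdr, the erythroid genes Hbb and Hba-a1 and the muscle gene Myog were at 0 as well. The part of these marker shifts in the results below was not tested, and in bulk RNA fewer cells of a type and less RNA per cell cannot be told apart.

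CDK inhibitors hold the cell cycle before DNA replication. The INK4 proteins, encoded by Cdkn2a (p16), Cdkn2b (p15), Cdkn2c (p18) and Cdkn2d (p19), bind CDK4 and CDK6 and keep cyclin D from activating them. The CIP/KIP proteins, encoded by Cdkn1a (p21), Cdkn1b (p27) and Cdkn1c (p57), bind cyclin-CDK complexes more broadly. p53 is held at low levels by the ubiquitin ligase MDM2. On DNA damage or oxidative stress p53 is stabilised and activates Cdkn1a, Mdm2 itself and Ccng1, which encodes cyclin G1. Cdkn2a also encodes ARF, from a separate first exon, and ARF blocks MDM2. In ageing discs p16, p21 and p53 are widely used as markers of senescent nucleus pulposus cells.

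The sequences just around the start sites of the p53-inducible genes are shown because they differ in how much of the p53 motif they hold. RefSeq promoter windows of the rat assembly GRCr8, running from 250 bases before to 50 bases after the annotated start, were present for 8 of the 9 genes. They were searched for the p53 half-site, whose pattern is its own reverse complement, so both strands were covered. Matches are in capitals in the windows below, which read 5′ to 3′ on the strand of the gene. The window of Cdkn1a is chr20:7150682-7150981 on the plus strand, that of Ccng1 is chr10:25684827-25685126 on the minus strand, and that of Mdm2 is chr7:55200742-55201041 on the minus strand.
Cdkn1a: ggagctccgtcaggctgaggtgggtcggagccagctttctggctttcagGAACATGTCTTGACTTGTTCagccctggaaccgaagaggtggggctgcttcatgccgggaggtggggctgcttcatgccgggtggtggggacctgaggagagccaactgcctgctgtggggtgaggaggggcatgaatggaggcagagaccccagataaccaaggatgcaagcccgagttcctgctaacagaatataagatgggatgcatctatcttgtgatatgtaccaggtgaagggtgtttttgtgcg
Ccng1: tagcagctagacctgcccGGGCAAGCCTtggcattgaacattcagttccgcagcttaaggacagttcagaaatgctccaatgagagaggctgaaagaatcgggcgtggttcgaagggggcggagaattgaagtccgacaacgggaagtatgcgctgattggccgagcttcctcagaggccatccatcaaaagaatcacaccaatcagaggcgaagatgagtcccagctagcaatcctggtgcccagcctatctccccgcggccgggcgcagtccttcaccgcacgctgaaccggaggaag
Mdm2: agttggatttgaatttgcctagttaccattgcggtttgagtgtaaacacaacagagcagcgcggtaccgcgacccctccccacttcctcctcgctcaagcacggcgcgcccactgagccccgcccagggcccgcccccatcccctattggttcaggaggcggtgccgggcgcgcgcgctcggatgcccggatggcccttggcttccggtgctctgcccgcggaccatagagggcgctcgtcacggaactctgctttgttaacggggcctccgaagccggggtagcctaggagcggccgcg
Cdkn1a held 1 half-site, GAACATGTCT, from position -201 to position -192 relative to the start. It was the first part of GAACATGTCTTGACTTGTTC, an abutting pair of half-sites with 1 mismatch that ended at position -182. Ccng1 held the single half-site GGGCAAGCCT from position -232 to position -223. Mdm2 held no match in this window, which says only that these letters are not within it. Among the CDK inhibitors Cdkn2c held GAGCTAGCTC at positions -11 to -2 and Cdkn2d held GGGCTTGCCT at positions -179 to -170, while Cdkn1b, Cdkn2a and Cdkn2b held none. A half-site occurred in 2671 of 33469 promoter windows of the same length (7.98%), and an abutting pair with up to 1 mismatch occurred in 12 (0.0359%). These are matches of letters, and no binding was measured.

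The question was whether the mRNA of the CDK inhibitors and of the p53-inducible genes differed in peroxide-treated cells when FGF21 was added. None of the 7 tested genes passed the quasi-likelihood test of edgeR, and in all 7 the TBHP and TBHP+FGF21 libraries overlapped. The count was 0 of 7 at an adjusted p under 0.05 and also 0 of 7 at an unadjusted p under 0.05, in edgeR, DESeq2 and limma-voom alike. Across all 11426 genes 8.92% had an unadjusted p under 0.05, 0.00875% (1 gene, Sirt1) had an adjusted p under 0.05 and 9.90% had groups that did not overlap. A log2 fold change above 1 in size with an unadjusted p under 0.05 was found for 0 of the 7 genes and for 0.534% of all genes. All 7 intervals of the difference held 0, and together they ran from -0.55 to 0.30 on the log2 scale, so no interval reached a log2 fold change of 1 in either direction. The fitted log2 fold change was above 0 in 2 of the 7 genes and below 0 in 5, with a median of -0.11, against 48.9% of all tested genes above 0 and a median of -0.0052.

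Cdkn1a, the CDK inhibitor that p53 activates, measured 353, 303 and 286 CPM in TBHP replicates 1, 2 and 3 and 331, 284 and 346 CPM in TBHP+FGF21 replicates 1, 2 and 3. The highest library and the second lowest were both TBHP libraries, and the groups were fully interleaved. The TBHP mean was 314 ± 34.8 CPM and the TBHP+FGF21 mean 321 ± 32.3 CPM (SD, n = 3 each). The log2 fold change was 0.03 (SE 0.11, 95% interval -0.21 to 0.27, adjusted p = 0.931 by edgeR), which as a fold ran from 0.863 to 1.21. Leaving out 1 library at a time moved it from -0.02, without TBHP replicate 3 or TBHP+FGF21 replicate 3, to 0.13 without TBHP replicate 1, so the small difference had no settled direction.

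Mdm2, the ligase that keeps p53 low and is itself induced by p53, measured 181, 198 and 189 CPM in the TBHP libraries and 198, 183 and 202 CPM in the TBHP+FGF21 libraries. TBHP+FGF21 replicate 2 lay below the TBHP mean and the other libraries of its group lay above it. The log2 fold change was 0.04 (SE 0.09, 95% interval -0.16 to 0.23, adjusted p = 0.892 by edgeR). It ranged from 0.01 to 0.09 when any 1 library was left out.

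Ccng1, whose product cyclin G1 recruits a phosphatase to MDM2, measured 223, 223 and 207 CPM in the TBHP libraries and 220, 190.2 and 229 CPM in the TBHP+FGF21 libraries. The lowest and the highest library both came from TBHP+FGF21 cells. The log2 fold change was -0.03 (SE 0.10, 95% interval -0.25 to 0.18, adjusted p = 0.914 by edgeR), and it was 0.05 without TBHP+FGF21 replicate 2.

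Mdm4, the relative of Mdm2 that binds and silences p53, measured 11.6 to 11.9 CPM in the TBHP group and 9.55 to 13.5 CPM in the TBHP+FGF21 group, with a log2 fold change of 0.03 (adjusted p = 0.95 by edgeR).

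**Figure D1:**
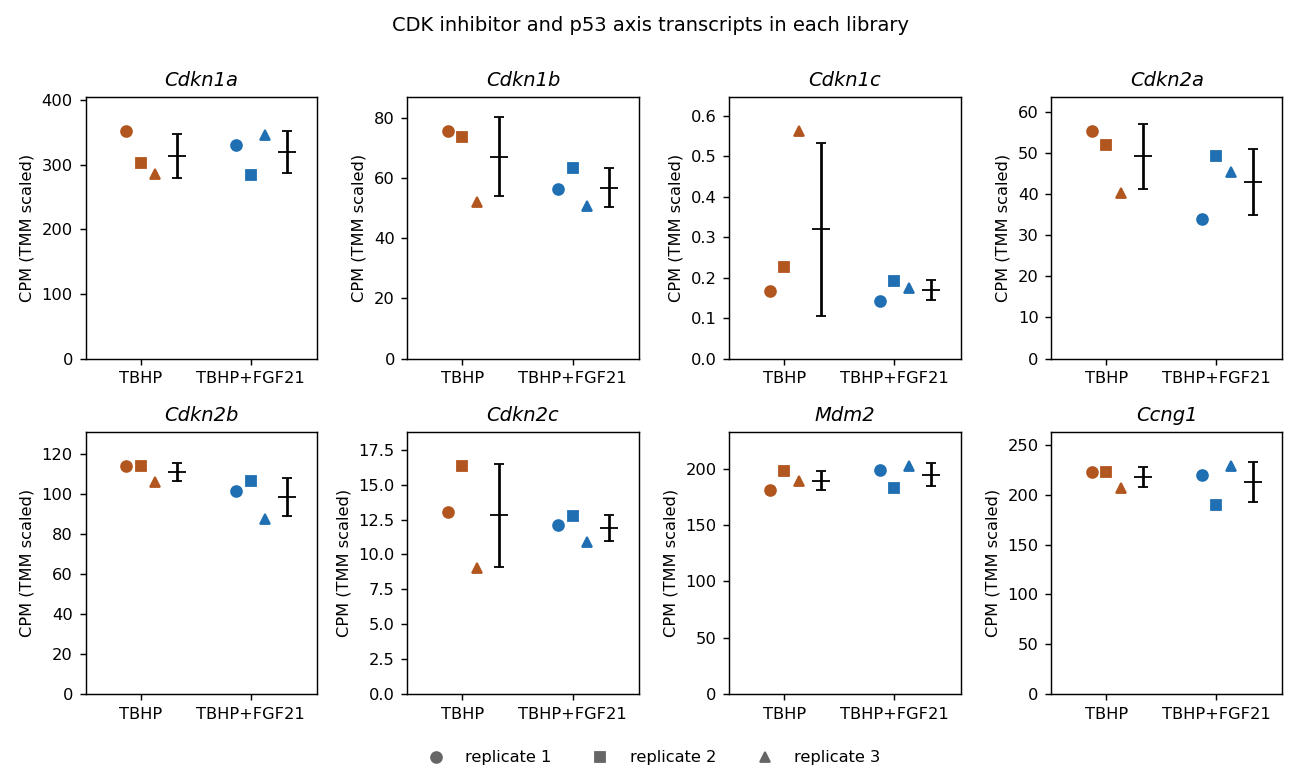
Levels of the 8 genes that had a row, in CPM scaled by the trimmed mean of M-values (TMM; vertical axis from 0), in the 3 TBHP libraries and the 3 TBHP+FGF21 libraries; marker shapes give the replicate, and the cross bars give mean ± SD. Cdkn1a at 284 to 353 CPM, like each of the other tested genes, has TBHP and TBHP+FGF21 points at overlapping heights.

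Among the KIP genes, Cdkn1b, which encodes p27, had the lowest fitted fold change of the 7 genes. It measured 75.8, 73.6 and 52.2 CPM in the TBHP libraries and 56.3, 63.5 and 50.8 CPM in the TBHP+FGF21 libraries. TBHP replicates 1 and 2 were the highest of all 6 libraries, but TBHP replicate 3 lay below TBHP+FGF21 replicates 1 and 2. The TBHP mean was 67.2 ± 13 CPM and the TBHP+FGF21 mean 56.9 ± 6.38 CPM (SD, n = 3 each). The log2 fold change was -0.24 (SE 0.14, 95% interval -0.55 to 0.06, adjusted p = 0.577 by edgeR). It was -0.14 without TBHP replicate 1 and -0.39 without TBHP replicate 3, where the unadjusted p was 0.00499 and the adjusted p was 0.241. p27 is regulated to a large extent by protein degradation, which is outside these measurements.

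Cdkn1c, the imprinted gene that encodes p57, was close to the limit of detection. It had 3, 5 and 12 counts in the TBHP libraries and 3, 4 and 4 counts in the TBHP+FGF21 libraries, 31 counts in all. These are 0.168, 0.227 and 0.563 CPM against 0.142, 0.191 and 0.174 CPM. Of the 20 counts in the TBHP group 12 came from TBHP replicate 3, and the gene was below the count filter, so no fold change was fitted and no difference was detectable at this depth.

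Cdkn2a, the INK4a/ARF gene, measured 55.4, 51.9 and 40.3 CPM in the TBHP libraries and 33.9, 49.3 and 45.3 CPM in the TBHP+FGF21 libraries. The highest libraries were TBHP replicates 1 and 2 and the lowest was TBHP+FGF21 replicate 1, with the remaining TBHP library below the remaining TBHP+FGF21 libraries. The TBHP mean was 49.2 ± 7.90 CPM and the TBHP+FGF21 mean 42.9 ± 8.03 CPM (SD, n = 3 each), and the log2 fold change was -0.20 (SE 0.15, 95% interval -0.52 to 0.13, adjusted p = 0.645 by edgeR). It was -0.04 without TBHP+FGF21 replicate 1 and -0.32 without TBHP replicate 3. TBHP+FGF21 replicate 1 is the only library whose treatment label names FGF21. With it alone against the TBHP group the log2 fold change was -0.53, a size without a spread of its own. The transcripts for p16 and ARF share exons and were counted together, so they could not be told apart.

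Cdkn2b, which encodes p15 and lies beside Cdkn2a on chromosome 5, measured 114, 114 and 106 CPM in the TBHP libraries and 102, 106 and 87.7 CPM in the TBHP+FGF21 libraries. The groups met only at about 106 CPM, where TBHP replicate 3 and TBHP+FGF21 replicate 2 lay together. The log2 fold change was -0.17 (SE 0.10, 95% interval -0.39 to 0.04) with the smallest unadjusted p of the 7 genes, 0.0979, and an adjusted p of 0.568 by edgeR. It stayed below 0 whichever library was left out, from -0.22 without TBHP+FGF21 replicate 2 to -0.09 without TBHP+FGF21 replicate 3.

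Cdkn2c, which encodes p18, measured 13.1, 16.3 and 9.0 CPM in the TBHP libraries and 12.1, 12.7 and 10.9 CPM in the TBHP+FGF21 libraries. The TBHP group spanned the whole TBHP+FGF21 group, holding both the highest and the lowest value. The log2 fold change was -0.11 (SE 0.19, 95% interval -0.52 to 0.30, adjusted p = 0.85 by edgeR), and it turned to 0.11 without TBHP replicate 2 and reached -0.30 without TBHP replicate 3. Exact two-sided permutation tests of the log2 CPM values, which cannot go below 0.1 with 3 libraries against 3, gave p = 0.2 or above for each of the 7 genes.

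**Figure D2:**
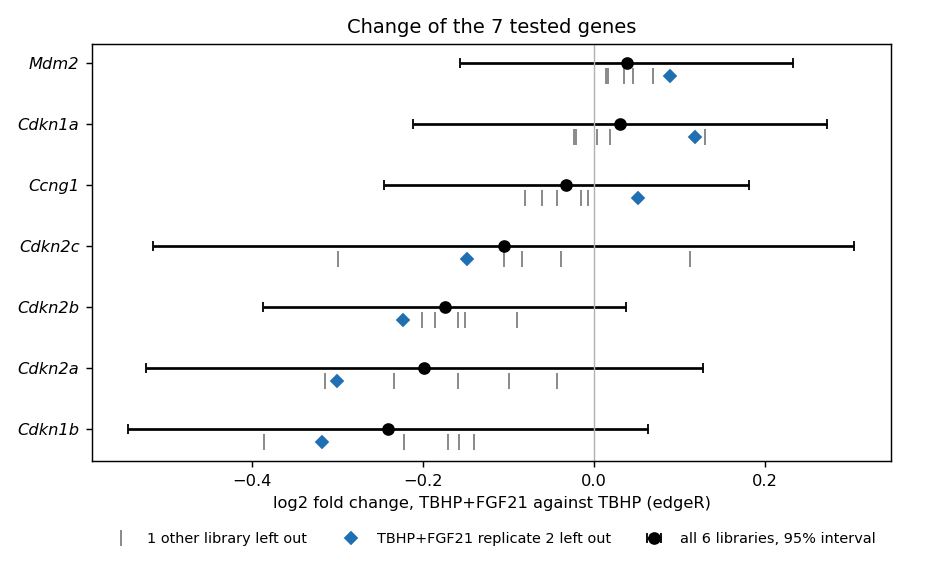
Fitted log2 fold change of each tested gene, TBHP+FGF21 against TBHP (horizontal axis), with its 95% interval from all 6 libraries, the values with 1 other library left out as ticks, and the value without TBHP+FGF21 replicate 2 as diamonds. Every interval crosses 0, from Mdm2 at 0.04 to Cdkn1b at -0.24.

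Without TBHP+FGF21 replicate 2 the count of genes past the test rose across the transcriptome, to 7.50% of 11559 genes at an adjusted p under 0.05 and 23.6% at an unadjusted p under 0.05. Of the 7 genes 0 passed at an adjusted p under 0.05 in edgeR and 3 had an unadjusted p under 0.05, all lower in TBHP+FGF21. These were Cdkn1b with a log2 fold change of -0.32 (adjusted p = 0.162), Cdkn2a with -0.30 (adjusted p = 0.210) and Cdkn2b with -0.22 (adjusted p = 0.195). Cdkn1a was then at 0.12 (adjusted p = 0.549), Mdm2 at 0.09 (adjusted p = 0.631), Ccng1 at 0.05 (adjusted p = 0.799) and Cdkn2c at -0.15 (adjusted p = 0.691).

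Without TBHP replicate 3 the share of all 11562 genes with an unadjusted p under 0.05 was 15.3%, and 0 genes (0.00%) had an adjusted p under 0.05 in edgeR. Of the 7 genes 1, Cdkn1b, had an unadjusted p under 0.05. The log2 fold changes were -0.39 for Cdkn1b, -0.32 for Cdkn2a, -0.30 for Cdkn2c, -0.20 for Cdkn2b, -0.06 for Ccng1, -0.02 for Cdkn1a and 0.05 for Mdm2.

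**Figure D3:**
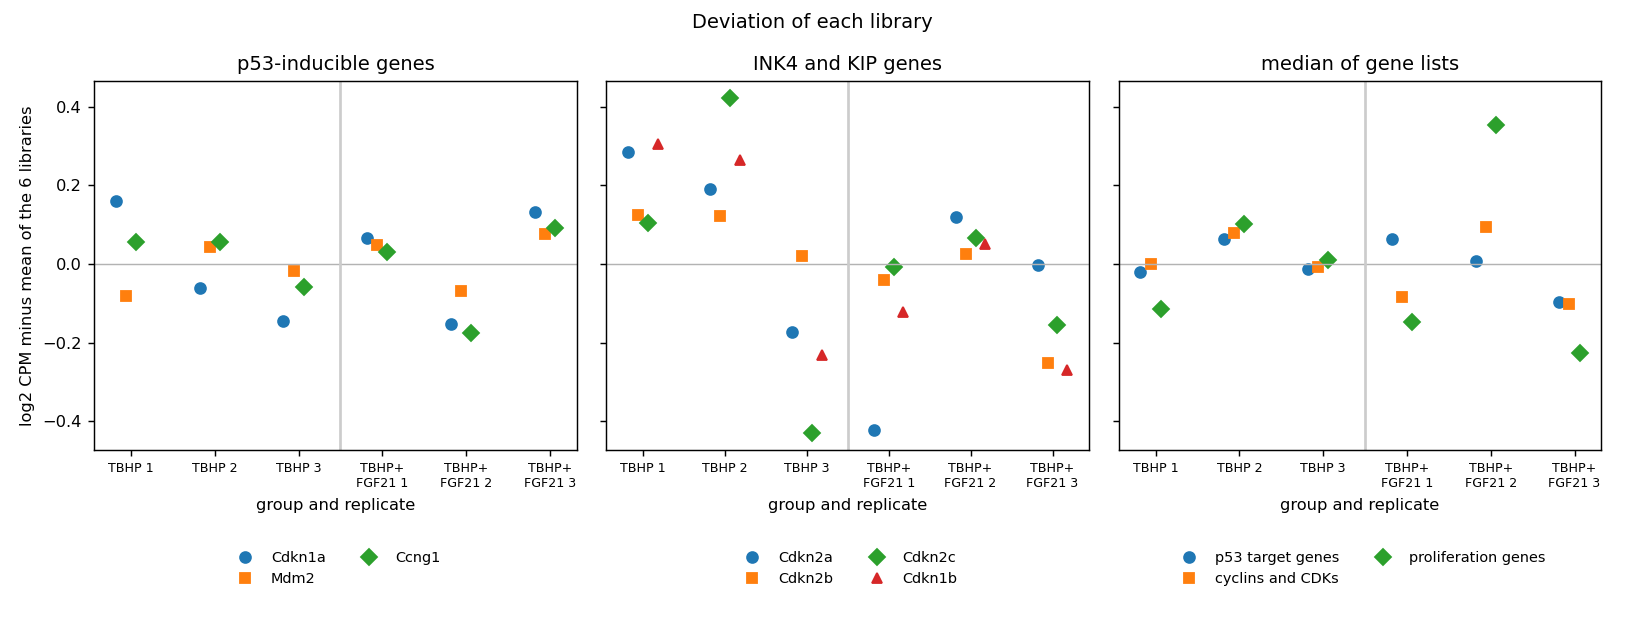
Deviation of each library from the mean of the 6 libraries in log2 CPM (vertical axis), for Cdkn1a, Mdm2 and Ccng1 on the left, for Cdkn1b, Cdkn2a, Cdkn2b and Cdkn2c in the middle, and for the median gene of 3 gene lists on the right; the grey line separates the groups. The median proliferation gene stands at 0.35 in TBHP+FGF21 replicate 2, against -0.15 and -0.23 in the other libraries of its group.

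For each of the 7 genes the range within at least 1 group exceeded the difference between the group means. All of the 7 genes except Mdm2 were higher in TBHP replicates 1 and 2 than in TBHP replicate 3. TBHP+FGF21 replicate 2 had the highest Cdkn1b, Cdkn2a, Cdkn2b and Cdkn2c of its group and the lowest Cdkn1a, Mdm2 and Ccng1 of its group. In the same library 28 proliferation genes had a median deviation of 0.35 in log2 CPM, while the median deviation of the 7 genes was 0.02. The part of this library's proliferation level in its CDK inhibitor levels was not tested.

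Genes with a pattern across the 6 libraries most like that of Cdkn1a were Scamp2, Kdelr1 and Adam23, with Pearson's r of log2 CPM of 0.989, 0.989 and 0.987. Adam23 lay at only 0.383 to 0.872 CPM, where counting error is large, against 294 to 336 CPM for Kdelr1. For Cdkn2a the most alike genes were Kif1b, Exosc7 and Scnm1, with r of 0.997, 0.994 and 0.993. An r above 0.9 was reached by 88 tested genes with Cdkn1a and by 369 with Cdkn2a, and all points share the libraries and their depth.

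The other genes of the pathway were read from lists of known members. Among p53 regulators 12 of 17 listed genes were tested, 9 above and 3 below 0, with a median log2 fold change of 0.07. Kat5, an acetyltransferase that modifies p53, was the only one of the 12 with an unadjusted p under 0.05 (log2 fold change 0.21, adjusted p = 0.553 by edgeR), where the share over all genes was 8.92%, and the checkpoint kinase gene Chek2 had the smallest p among those below 0 (-0.19, adjusted p = 0.708).

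Genes that p53 activates, other than Cdkn1a, Mdm2 and Ccng1, had values on both sides of 0. Of 30 listed genes 26 were tested, 11 above and 15 below 0, with a median log2 fold change of -0.05. An unadjusted p under 0.05 was found for 3 genes higher in TBHP+FGF21 and 3 lower, where the background was 4.63% of all genes higher and 4.29% lower, and 0 had an adjusted p under 0.05 in edgeR. Btg2, which encodes an antiproliferative protein, measured 109, 99.98 and 104 CPM in the TBHP libraries and 157, 132 and 125 CPM in the TBHP+FGF21 libraries. Its groups did not overlap, and its log2 fold change was 0.41 (SE 0.10, unadjusted p = 0.00197, adjusted p = 0.553 by edgeR). Gadd45a, which acts in DNA repair and at the G2 checkpoint, measured 369, 369 and 353 CPM in the TBHP libraries and 267, 357 and 200.4 CPM in the TBHP+FGF21 libraries. Its replicate 2 lay inside the TBHP range, and its log2 fold change was -0.41 (adjusted p = 0.553 by edgeR).

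The remaining 4 had the same adjusted p. Gdf15, a stress-induced cytokine, was at 0.59 and Pml, which encodes the scaffold of PML nuclear bodies, at 0.46, whereas Pmaip1, which encodes the pro-apoptotic protein NOXA, was at -0.41 and Rps27l, a ribosomal protein gene whose counts may be shared with similar copies, at -0.55. These 4 were named after their values were seen, while Btg2 and Gadd45a had the smallest p in each direction. With TBHP+FGF21 replicate 2 left out, 3 of the 26 tested target genes were higher and 3 lower at an adjusted p under 0.05 in edgeR. The background was 3.78% of genes higher and 3.72% lower. The genes past the test were the same 6, with an adjusted p between 0.00214 and 0.0268. Their log2 fold changes were 0.81 for Gdf15, 0.63 for Pml, 0.44 for Btg2, -0.57 for Pmaip1, -0.63 for Gadd45a and -0.77 for Rps27l. Without TBHP replicate 3 all 6 kept their direction and had an unadjusted p under 0.05, with adjusted p between 0.241 and 0.318. The 6 genes were picked by their p in the fit of all 6 libraries. Neither fit with a library left out is therefore a separate test of them.

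**Figure D4:**
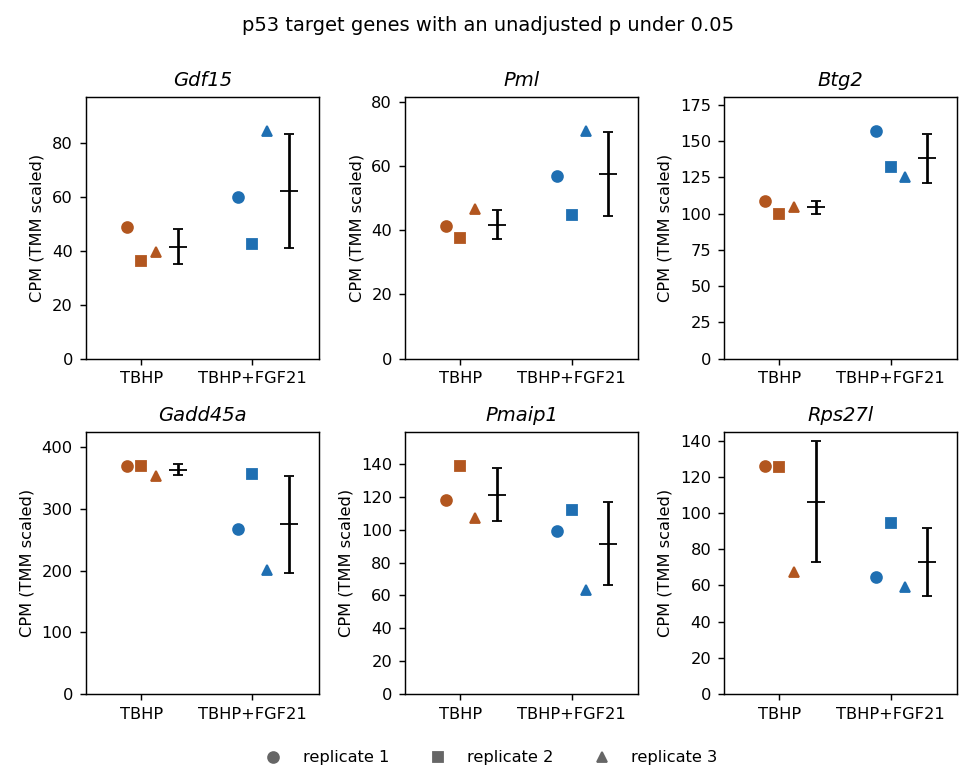
Levels in TMM-scaled CPM (vertical axis from 0) of the 6 p53 target genes with an unadjusted p under 0.05, by group and replicate, with mean ± SD as cross bars. Gdf15, Pml and Btg2 have higher means in TBHP+FGF21 and Gadd45a, Pmaip1 and Rps27l lower means, and the TBHP+FGF21 replicate 2 square of Gadd45a sits at 357 CPM within the TBHP range.

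Downstream of the CDK inhibitors, the cyclins and CDKs had 5 of 16 tested genes above 0 and 11 below, with a median of -0.04. Cdc25b, a phosphatase that activates CDKs, was at 0.28 and Ccnh, the cyclin of the CDK-activating kinase, at -0.33 (adjusted p = 0.553 for both by edgeR). The direct targets of the INK4 proteins gave 0.12 for Cdk6 and -0.04 for Cdk4, and their partner Ccnd1 gave -0.06, with adjusted p of 0.675, 0.896 and 0.822 by edgeR. These 3 were also named after their values were seen. The pocket proteins and E2F factors, which carry the signal from CDKs to S-phase genes, had 10 of 16 above 0 and a median of 0.09, with E2f8 at 0.37 (adjusted p = 0.590) and Tfdp2 at -0.51 (adjusted p = 0.553).

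The proliferation genes had 15 of 28 above 0 and a median of 0.02, and the replication helicase genes Mcm2 at 0.20 (adjusted p = 0.553 by edgeR) and Mcm4 at -0.11 (adjusted p = 0.762) had the smallest p in each direction. The median had no settled direction, running from -0.20 without TBHP+FGF21 replicate 2 to 0.15 without TBHP+FGF21 replicate 3. Without TBHP+FGF21 replicate 2 the mitotic genes Cdc20 (-0.38, adjusted p = 0.0480) and Ube2c (-0.60, adjusted p = 0.0373) passed the test, 2 of 28 genes where 7.50% of all genes passed. Both were named after their values were seen. The known regulators of the INK4/ARF and KIP genes had 8 of 21 above 0, a median of -0.05 and 0 genes with an unadjusted or adjusted p under 0.05 in edgeR. Bmi1, a Polycomb repressor of Cdkn2a, was at 0.24 (adjusted p = 0.568) and Eed, a subunit of the Polycomb methyltransferase, at -0.24 (adjusted p = 0.559).

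The 6 nuclear and lysosomal senescence markers had 2 above and 4 below 0. Glb1, which encodes the lysosomal β-galactosidase stained in senescent cells, measured 307, 283 and 320 CPM in the TBHP libraries and 400.4, 288 and 443 CPM in the TBHP+FGF21 libraries. Its log2 fold change was 0.31 (adjusted p = 0.553 by edgeR). Without TBHP+FGF21 replicate 2 it was 0.48 (adjusted p = 0.00924), and without TBHP replicate 3 it was 0.36 (adjusted p = 0.317). With all 6 libraries Glb1 was the 1 marker of the 6 with an unadjusted p under 0.05, against 8.92% of all genes. Without TBHP+FGF21 replicate 2 it was the 1 marker with an adjusted p under 0.05. The background was then 3.78% of genes higher and 3.72% lower. Hmgb1, a chromatin protein, was at -0.09 (adjusted p = 0.759 by edgeR).

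**Figure D5:**
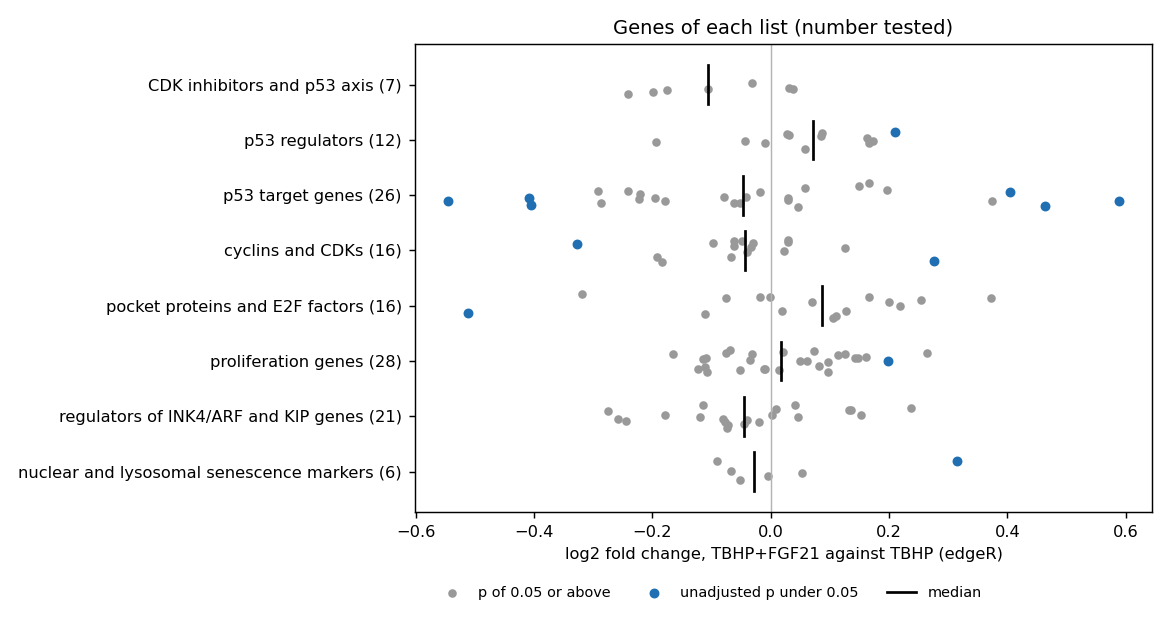
Fitted log2 fold changes, TBHP+FGF21 against TBHP (horizontal axis), of every tested gene in the 7 tested CDK inhibitor and p53 axis genes and in 7 pathway lists, with black lines for the medians and blue points for an unadjusted p under 0.05. The medians lie between -0.11 and 0.09, and the p53 target genes spread from -0.55 to 0.59.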

How the data were processed

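RNA-seq was made from 3 TBHP and 3 TBHP+FGF21 samples, grouped by title. The authors deposited a combined gene table, whose values are expected counts (22 rows held values that were not whole, which were rounded up), and per-sample files of counts per Ensembl gene. The submitters' processing notes name STAR and featureCounts, and the genome build was not given in the sources used here. All 8 rows of the genes described equalled 1 row each of the per-sample files. The labels name a directional kit, but the per-sample files gave nearly equal counts for both strands and the unstranded totals were used, so reads from a gene and an antisense partner cannot be told apart. Reads assigned to no gene were left out of library sizes: 1.24 to 1.40% unmapped, 6.27 to 7.02% multimapping, 9.13 to 10.4% outside genes and 1.72 to 2.09% ambiguous. No 2 libraries agreed within sampling noise (chi-square per gene of 6.72 to 55.7 over 15 pairs).

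Counts were scaled by TMM and tested with edgeR 4.0.16 in R 4.3.3 by its quasi-likelihood test, with Benjamini-Hochberg adjustment over all tested genes, after a filter on low counts (minimum count 10, minimum total 15). The call was an adjusted p under 0.05. Alternatives were DESeq2 1.42.0, limma-voom (limma 3.58.1), DESeq2 size factors, no filter, the per-sample counts, a replicate block, each library left out, and TBHP+FGF21 replicate 1 alone. The scripts were tested on simulated data. Depth sets the precision through counting error, and 3 counts was taken as the floor. Percentages of genes called are over all genes tested.

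The genes and lists were chosen with earlier results of these data known. Named genes were the 9 genes, Mdm4, in each list the gene with the smallest p above and below 0, and the 3 genes most like Cdkn1a and Cdkn2a. List genes named outside this rule are marked in the text as chosen after their values were seen, as was Sirt1, the only gene past the threshold, and marker genes were named to check the cell type. The rule named 1 more gene, which is not reported here. Coordinates and promoter sequences are from RefSeq (GRCr8), which gives 1 start per gene; the start used for Cdkn2a, Cdkn2c and Mdm2, among others, lies inside the outer end of the annotated gene.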

Additional observations from a re-analysis of the deposited data

How the results depend on the processing

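No fold change of the 7 tested genes passed an adjusted p under 0.05 in any of 13 alternatives (91 values, adjusted p 0.0664 to 0.999), and 86 kept their direction. The 5 that turned were Cdkn1a (-0.024 without TBHP replicate 3 and -0.022 without TBHP+FGF21 replicate 3), Cdkn2c (0.11 without TBHP replicate 2) and Ccng1 (0.051 without TBHP+FGF21 replicate 2 and 0.017 with only TBHP+FGF21 replicate 1). With all 6 libraries Cdkn1a was at 0.03, Cdkn2c at -0.11 and Ccng1 at -0.03. The cause was not tested. Leaving out 1 library gave log2 fold changes of -0.024 to 0.13 for Cdkn1a, -0.39 to -0.14 for Cdkn1b, -0.32 to -0.04 for Cdkn2a, -0.22 to -0.09 for Cdkn2b, -0.30 to 0.11 for Cdkn2c, 0.01 to 0.09 for Mdm2 and -0.080 to 0.051 for Ccng1. It gave 0 to 867 genes with an adjusted p under 0.05, 337 to 2732 with an unadjusted p under 0.05, 51 to 200 also past a log2 fold change of 1 in size, and 0 to 3 of the 7 genes with an unadjusted p under 0.05, the highest counts coming without TBHP+FGF21 replicate 2. Over all genes the unadjusted count ran from 337 of 11536 without TBHP replicate 2 to 2732 of 11559 (23.6%) without TBHP+FGF21 replicate 2. The list counts moved beside that share. They ran from 0 to 1 of 12 p53 regulators, 2 to 10 of 26 p53 target genes and 0 to 3 of 16 cyclins and CDKs. Pocket proteins and E2F factors gave 0 to 2 of 16 and proliferation genes 0 to 8 of 28. INK4/ARF and KIP regulators gave 0 to 3 of 21 and senescence markers 0 to 3 of 6. The list medians ran from 0.020 to 0.10 for p53 regulators, -0.076 to -0.010 for p53 target genes, -0.11 to 0.014 for cyclins and CDKs, 0.034 to 0.11 for pocket proteins and E2F factors, -0.20 to 0.15 for proliferation genes, -0.098 to -0.0098 for INK4/ARF and KIP regulators and -0.13 to 0.054 for senescence markers. The count of all genes with an adjusted p under 0.05 was 1 (Sirt1, adjusted p = 0.0200), 0 with the per-sample counts, 0 with limma-voom, 4 with DESeq2's Wald test and 5 without the filter. The TBHP counts of Sirt1 in the combined table were found in 0 rows of the per-sample files. Without the filter 146 genes, in place of 61, passed a log2 fold change of 1 in size and an unadjusted p under 0.05. An unadjusted p under 0.05 was then found for 2 of 14 p53 regulators and 1438 of 14882 genes. DESeq2 gave 0 for p53 regulators and 0 for proliferation genes, and limma-voom gave 0 for senescence markers. With only TBHP+FGF21 replicate 1, 325 genes had an adjusted p and 1669 an unadjusted p under 0.05, 189 passed both fold and unadjusted p, and 1 of the 7 genes (Cdkn2a) had an unadjusted p under 0.05. The list medians were then 0.044 for p53 target genes and -0.16 for senescence markers. Same-numbered libraries deviated together with r of -0.12, 0.21 and 0.15, and the 0.21 of both replicates 2 was the highest of all pairs across the groups. Deviations from a group mean cancel out within the group, which constrains these values. They cannot settle whether same-numbered libraries were paired. TBHP replicate 1 correlated best with TBHP+FGF21 replicate 2 (0.09) and TBHP replicate 3 with TBHP+FGF21 replicate 1 (0.18). With the replicate block in edgeR, 2 of 11426 genes had an adjusted p and 1599 of 11426 an unadjusted p under 0.05. Beside that share, an unadjusted p under 0.05 was found for 1 of 21 INK4/ARF and KIP regulators and 1 of the 7 genes. The latter was Cdkn1b (unadjusted p = 0.0333, adjusted p = 0.298). With 3 libraries a group the intervals of Cdkn1b, Cdkn2a and Cdkn2c reach down to log2 differences of -0.55, -0.52 and -0.52.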
